A study of Mus musculus with 10 samples.

Results

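Simple epithelial keratins are the intermediate filament proteins of single-layered epithelia, and 6 of their genes were followed here: Krt7, Krt8, Krt18, Krt19, Krt20 and Krt23. They were listed by symbol, and all 6 were found among the 49585 gene rows of the deposited count tables, which hold 54 keratin genes in all. The series holds bulk RNA sequencing of mouse liver cells from a model in which the Rb gene family is knocked out and which develops liver tumours, with 10 samples in 5 groups of 2. Count columns were tied by name to the Sox9-derived organoids (2 libraries) and the Ck19-derived organoids (2 libraries), and the other 3 groups were not analysed here. A second Sox9 column pair carries a TKO tag and equally bears the Sox9 label, so it was kept as an alternative for the same 2 samples and is called TKO-tagged Sox9 below. The labels describe all samples as untreated primary liver cells, with sorted YFP-positive cells in which Cre had recombined floxed alleles, and name neither the strain, age, sex and genotype of any single sample nor the cell type that expressed Cre. Whether replicate libraries stem from different animals or cultures is not given, so each p-value measures only the spread between these libraries, which may be technical.

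Keratin filaments are built from pairs of 1 acidic type I protein (here Krt18, Krt19, Krt20 and Krt23) and 1 basic type II protein (Krt7 and Krt8). Hepatocytes contain Krt8 and Krt18 almost alone, whereas the cells that line bile ducts add Krt7 and Krt19. For this reason Krt19, also called Ck19, is widely used as a mark of bile duct and progenitor cells, and the comparison of Krt7 and Krt19 with Krt8 and Krt18 tells a duct-like keratin pattern from a hepatocyte-like one.

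The libraries held 33154972 and 36606008 assigned fragments in the Sox9-derived organoids, 53280136 and 59664959 in TKO-tagged Sox9, and 31883180 and 32747944 in the Ck19-derived organoids. Levels are given as CPM, each fragment count scaled to its library's total of assigned fragments. Markers of bile duct epithelium (15 genes) summed to 26961 and 29706 CPM in Sox9-derived libraries, 798 and 1354 CPM in TKO-tagged Sox9 and 13363 and 13505 CPM in the Ck19-derived organoids. Of these sums, in the same order of libraries, Spp1 alone held 18279 and 22830 CPM, 394 and 1018 CPM, and 7744 and 7434 CPM. Hepatocyte markers (12 genes) summed to 355 and 691 CPM in Sox9-derived libraries, 42683 and 54216 CPM in TKO-tagged Sox9 and 347 and 368 CPM in Ck19-derived libraries. Albumin (Alb) alone stood at 13158 and 21740 CPM in TKO-tagged Sox9 and at no more than 20.4 CPM in any other library. In TKO-tagged Sox9 the mesenchymal list summed to 228 and 389 CPM, the endothelial list to 74.2 and 126 CPM and the myeloid list to 735 and 779 CPM. In the organoid libraries without the tag the mesenchymal and endothelial lists reached at most 2.84 and 2.99 CPM and the myeloid list at most 85.1 CPM. The TKO-tagged libraries thus went against the organoid label, and whether they belong to the Sox9-derived samples could not be settled from the names. They were also no repeat run of the untagged libraries. The chi-square per gene between libraries of the same number was 1554 and 1600, against 118 within the Sox9-derived pair. The Sox9-derived libraries had 2615 and 3383 fragments of the Y-linked gene Eif2s3y, TKO-tagged Sox9 had 3713 and 3770, and the Ck19-derived libraries had 3 in each. Every difference from the Ck19-derived organoids therefore cannot be told apart from sex and animal. Nor can it be told apart from genotype, which is not given for any single sample. The TKO-tagged columns were also deposited in a separate set of counts from the untagged libraries. Differences between TKO-tagged Sox9 and the Ck19-derived organoids cannot be told apart from that split either.

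**Figure D1:**
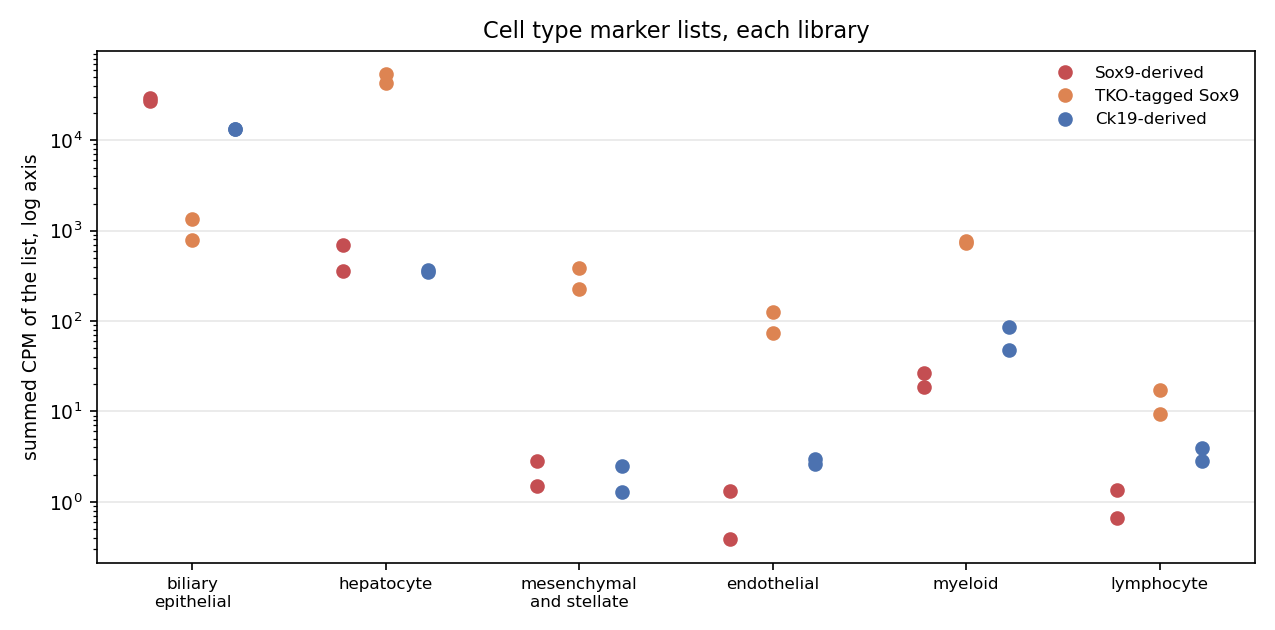
Summed CPM (log axis) of 6 cell type marker lists in each library, with 2 points a group. The hepatocyte list lies at or above 42683 CPM in TKO-tagged Sox9 and at or below 691 CPM in the other libraries, and the biliary list lies lowest in TKO-tagged Sox9, at 798 and 1354 CPM.

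The 6 keratins together took 1.29% and 1.45% of the assigned fragments in Sox9-derived libraries and 1.49% and 1.58% in Ck19-derived libraries. In TKO-tagged Sox9 they took less, 0.243% and 0.615%. They summed to 12945 and 14453 CPM in Sox9-derived libraries, 2427 and 6151 CPM in TKO-tagged Sox9 and 14895 and 15826 CPM in the Ck19-derived organoids. In bulk RNA, fewer cells of a type and less RNA per cell cannot be told apart. Of all keratin fragments, the 6 genes held 99.8% in each Sox9-derived library, 99.7% and 99.9% in TKO-tagged Sox9, and 98.8% and 99.3% in the Ck19-derived pair. Of the 48 other keratin genes, 2 reached 1 CPM in each Sox9-derived library, 1 in each TKO-tagged library, and 9 and 11 in the Ck19-derived libraries.

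Per kilobase of annotated exon, Krt18 was the most abundant of the 6 in every library. In the Sox9-derived organoids the mean level of Krt18 was 3824 ± 203 CPM per kilobase (SD, n = 2 here and for the levels that follow), followed by Krt8 at 2150 ± 99.7, Krt19 at 1646 ± 50.9, Krt7 at 197 ± 75.2, Krt23 at 12.7 ± 14.2 and Krt20 at 0. In the Ck19-derived organoids the order was Krt18 at 4917 ± 127, Krt8 at 2375 ± 92.8, Krt19 at 1185 ± 194, Krt7 at 236 ± 6.62, Krt23 at 204 ± 2.19 and Krt20 at 3.13 ± 1.40 CPM per kilobase. Neighbours in these orders lay apart by more than their SDs in both kinds of organoid, except Krt23 and Krt20 in the Sox9-derived organoids. The closest neighbours in the Ck19-derived organoids were Krt7, at 232 and 241 CPM per kilobase, and Krt23, at 202 and 205. In TKO-tagged Sox9 Krt18 stood at 1745 ± 920 and Krt8 at 1000 ± 729 CPM per kilobase, and their ranges overlapped. There Krt20 followed at 13.9 ± 12.3 and Krt23 at 8.69 ± 4.84 CPM per kilobase, which overlapped too, before Krt19 at 0.601 ± 0.377 and Krt7 at 0.0466 ± 0.0658. The place of Krt7 depends on the length used. The annotation used for counting gives it 7055 exon bases. Its longest protein-coding transcript has 4094 bases in GENCODE, a different annotation. With the shorter length Krt7 stood at 340 and 407 CPM per kilobase in the Sox9-derived and Ck19-derived organoids, still below Krt19 at 1938 and 1395.

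**Figure D2:**
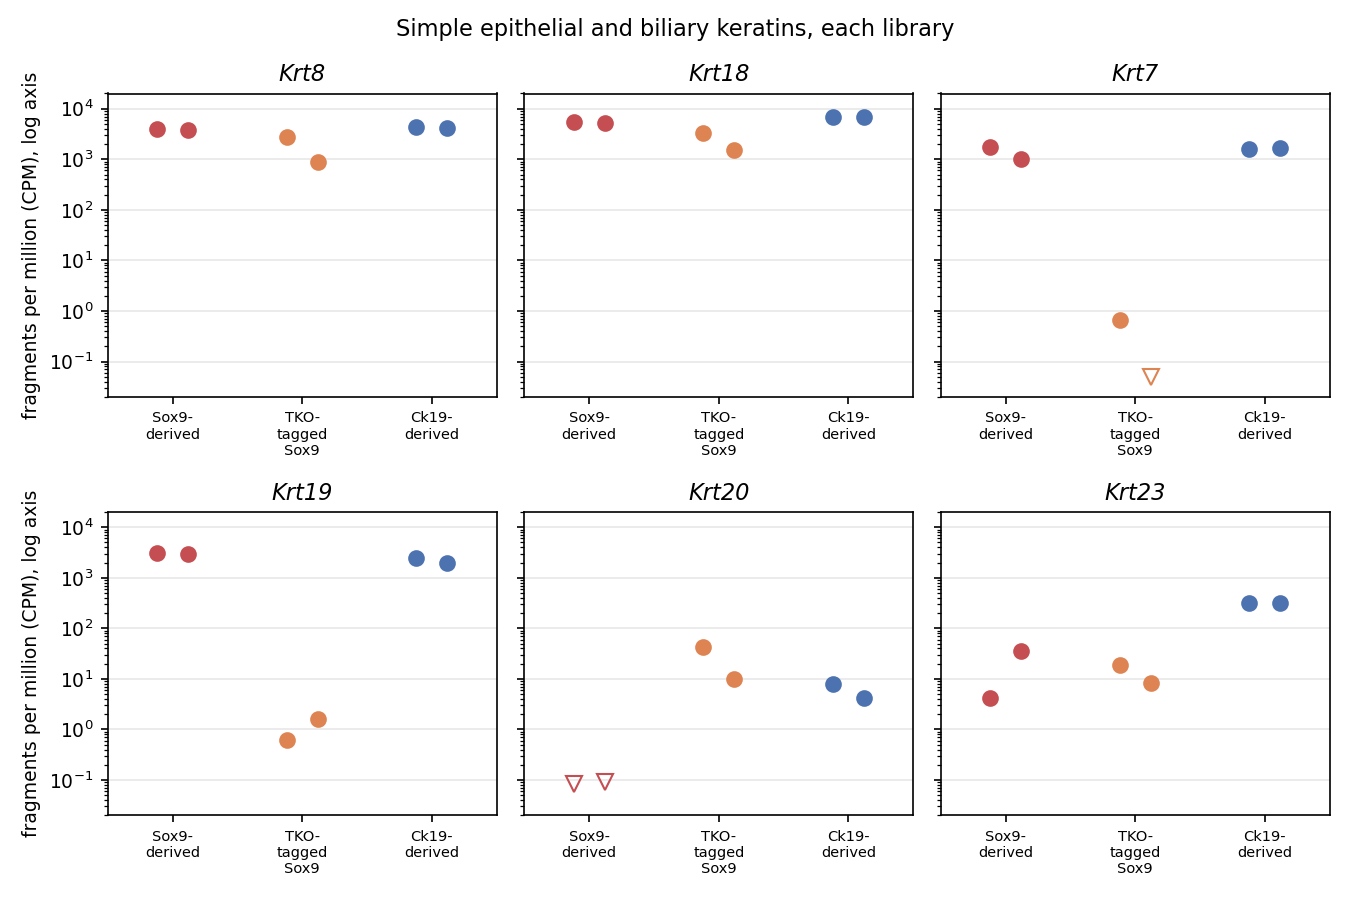
CPM (log axis) of each keratin in each library, 2 points a group; open triangles mark libraries with 0 fragments, drawn at the level of 3 fragments. Krt8 and Krt18 are high in all 6 libraries, whereas Krt7 and Krt19 are below 2 CPM in TKO-tagged Sox9 and above 1000 CPM in the others.

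Krt8 and Krt18, the pair shared by hepatocytes and bile duct cells, were high in every library. Krt8 had 3753 and 4008 CPM in Sox9-derived libraries, 874 and 2734 CPM in TKO-tagged Sox9, and 4168 and 4405 CPM in the Ck19-derived organoids. Krt18 had 5153 and 5554 CPM in Sox9-derived libraries, 1533 and 3353 CPM in TKO-tagged Sox9, and 6758 and 7009.8 CPM in Ck19-derived libraries. For both genes each Sox9-derived library lay below each Ck19-derived library without overlap, and the TKO-tagged libraries lay lowest and far apart from each other. The Sox9-derived differences were small, with log2 fold changes over the Ck19-derived organoids of −0.14 (SE 0.13) for Krt8 and −0.36 (SE 0.13) for Krt18. Neither was called by edgeR's quasi-likelihood test (adjusted p = 0.649 and 0.260).

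The genes for Krt8 and Krt18 are neighbours although they encode proteins of different types. Krt8 (ENSMUSG00000049382) lies on chromosome 15 at 101996711 to 102004342, minus strand, and Krt18 (ENSMUSG00000023043) at 102028216 to 102032026, plus strand, in GRCm38 coordinates. The stretch between them is 23873 bases long. Their relative level, Krt8 over Krt18 per kilobase, was 0.560 and 0.565 in the Sox9-derived organoids and 0.478 and 0.487 in the Ck19-derived organoids. In TKO-tagged Sox9 it was 0.442 and 0.632, below and above all of these. The promoters of Krt8 and Krt18 are shown because these genes were high in every library, and that of Krt7 because it was at or near 0 where they were not. RefSeq (GRCm38.p6) gave promoters for 5 of the 6 genes, all but Krt19. Each line runs 5′ to 3′ from 250 bases before the annotated start to 30 bases after it, on the gene's own strand, with capitals for TATAAA or GGGCGG on either strand. The windows are chr15:102004313-102004592 (minus) for Krt8, chr15:102027966-102028245 (plus) for Krt18 and chr15:101412153-101412432 (plus) for Krt7.
Krt8: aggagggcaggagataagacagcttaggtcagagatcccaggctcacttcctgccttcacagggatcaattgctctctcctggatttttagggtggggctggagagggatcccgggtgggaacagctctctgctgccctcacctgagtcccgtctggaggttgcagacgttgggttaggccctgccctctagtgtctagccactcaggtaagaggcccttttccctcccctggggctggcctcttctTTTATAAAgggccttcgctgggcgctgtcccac
Krt18: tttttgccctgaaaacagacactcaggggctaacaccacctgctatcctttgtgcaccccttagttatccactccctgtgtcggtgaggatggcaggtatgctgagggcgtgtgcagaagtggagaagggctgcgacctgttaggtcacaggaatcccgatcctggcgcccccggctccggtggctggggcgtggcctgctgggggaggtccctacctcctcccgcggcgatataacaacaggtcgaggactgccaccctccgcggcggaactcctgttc
Krt7: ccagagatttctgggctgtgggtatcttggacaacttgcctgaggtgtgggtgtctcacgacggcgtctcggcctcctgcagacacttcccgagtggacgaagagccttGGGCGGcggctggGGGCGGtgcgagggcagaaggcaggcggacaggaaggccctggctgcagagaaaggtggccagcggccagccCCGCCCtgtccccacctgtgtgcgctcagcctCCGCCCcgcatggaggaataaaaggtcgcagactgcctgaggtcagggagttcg
TATAAA is the core of a TATA box and GGGCGG that of a GC box, which Sp1 proteins can bind. In these windows Krt8 held 2 overlapping TATAAA matches, 1 on each strand, that begin 3 and 1 bases before the annotated start and run across it, and no GGGCGG. Krt18 held neither. Krt7 held 4 GGGCGG matches, beginning 141, 128, 56 and 24 bases before the start, and no TATAAA. Of the windows not shown, that of Krt20 held 1 TATAAA, beginning 29 bases before the start, and no GGGCGG. The window of Krt23 held neither. Whether these motifs bear on the levels was not tested. Among 32851 mouse promoter windows of the same length, 13.1% held TATAAA and 34.7% held GGGCGG on either strand.

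The value of Krt8 is uncertain because of a near-identical copy elsewhere in the genome. Krt8-ps (ENSMUSG00000109325, chromosome 7, 23357125 to 23358069) is a processed pseudogene that was counted as a gene of its own, and fragments with a mapping quality under 10 were not counted for either. It was assigned 701 and 767 CPM in Sox9-derived libraries, 156 and 505 CPM in TKO-tagged Sox9, and 791 and 840 CPM in the Ck19-derived organoids. Its share of the fragments of both genes hardly varied. It was 15.7% and 16.1% in the Sox9-derived libraries, 15.1% and 15.6% in the TKO-tagged libraries, and 15.9% and 16.0% in the Ck19-derived libraries. Whether any of these fragments came from transcripts of Krt8-ps itself was not tested.

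Krt7 and Krt19, the keratins that bile duct cells add, were high in both kinds of organoid and nearly missing from TKO-tagged Sox9. Krt19 (ENSMUSG00000020911, chromosome 11, 100140810 to 100148665, minus strand), the type I keratin behind the name Ck19, had 2987 and 3120 CPM in Sox9-derived libraries, 0.619 and 1.61 CPM in TKO-tagged Sox9, and 1945 and 2453 CPM in the Ck19-derived organoids. It was thus higher in each Sox9-derived library than in each organoid library named after it, but without passing the test (0.47 on the log2 scale, SE 0.17, edgeR adjusted p = 0.277). Krt7 (ENSMUSG00000023039, chromosome 15, 101411043 to 101430313, plus strand), the type II keratin of ducts, had 1017 and 1767 CPM in Sox9-derived libraries, 0 and 0.657 CPM in TKO-tagged Sox9, and 1634 and 1699.7 CPM in the Ck19-derived organoids. The Sox9-derived libraries lay on either side of the Ck19-derived pair, and Krt7 did not pass the test (−0.26 on the log2 scale, SE 0.28, edgeR adjusted p = 0.702). Without Sox9-derived replicate 2 its log2 fold change was 0.082 (edgeR adjusted p = 0.906), and without replicate 1 it was −0.69 (edgeR adjusted p = 0.116).

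Against the Ck19-derived organoids, TKO-tagged Sox9 had 129 fragments of Krt19 over both libraries, compared with 141894. The ratio of these totals, scaled to library size, was 1922-fold lower in TKO-tagged Sox9, with a 95% exact counting interval of 1618 to 2303. Krt7 had 35 fragments over the TKO-tagged pair, all in replicate 1, against 107743, which was 5380-fold lower (interval 3868 to 7724). Such intervals cover counting error only. These ratios use library totals, whereas the edgeR values that follow rest on TMM scaling between libraries. With library totals alone edgeR gave log2 fold changes of −10.94 for Krt19 and −12.33 for Krt7. Both genes fell in the edgeR fit of these 4 libraries, Krt19 with a log2 fold change of −10.20 (SE 0.69, adjusted p = 0.00169) and Krt7 with −11.55 (SE 1.67, adjusted p = 0.0106). Krt19 was still called without any 1 library (adjusted p from 5.33e-06 to 0.0181), whereas Krt7 was not called without Ck19-derived replicate 1 or 2 (adjusted p = 0.0655 and 0.0691). In the same fit the hepatocyte markers rose in 12 of 12 genes and 8 of 15 biliary markers fell, beside 15.0% higher and 14.0% lower among all tested genes, and their part in the keratin differences was not tested.

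The shared and the biliary keratins were then set against each other within each library, which needs no scaling between libraries. Of the fragments of Krt7, Krt8, Krt18 and Krt19, the 2 biliary genes took 31.0% and 33.8% in the Sox9-derived organoids, 0.0210% and 0.0668% in TKO-tagged Sox9, and 25.0% and 26.4% in the Ck19-derived organoids. The share was higher in each Sox9-derived library than in each Ck19-derived library. The 95% exact (Clopper-Pearson) counting interval ran from 30.9% to 31.2% for the lower Sox9-derived library and from 26.2% to 26.5% for the higher Ck19-derived library. It ran from 33.7% to 34.0% for the higher Sox9-derived library and from 24.9% to 25.1% for the lower Ck19-derived library. Replicates of the same group thus lay outside each other's intervals too. Such intervals cover counting error only, so their lack of overlap does not tell the groups apart. On the log2 scale, the mean of Krt7 and Krt19 less the mean of Krt8 and Krt18 per kilobase was −2.36 ± 0.23 in the Sox9-derived and −2.70 ± 0.051 in the Ck19-derived organoids (SD, n = 2 each). The difference was 0.34, with a two-sided exact permutation p = 0.333, the smallest that 2 against 2 libraries can give. Against Krt8 and Krt18, Krt19 alone differed by 0.74 and Krt7 alone by −0.060. Among the 6 pairs of these 4 genes, the groups did not overlap in 4 pairs, each with exact permutation p = 0.333 (0.5 after Benjamini-Hochberg adjustment over the 6 pairs). These log2 differences were −0.85 for Krt18 over Krt19, −0.80 for Krt7 over Krt19, −0.63 for Krt8 over Krt19 and 0.22 for Krt8 over Krt18. All but the last contain Krt19, so they are not separate results. How often pairs of other genes lie apart between these libraries was not tested. The count of 4 pairs is therefore not read as a result about these keratins.

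**Figure D3:**
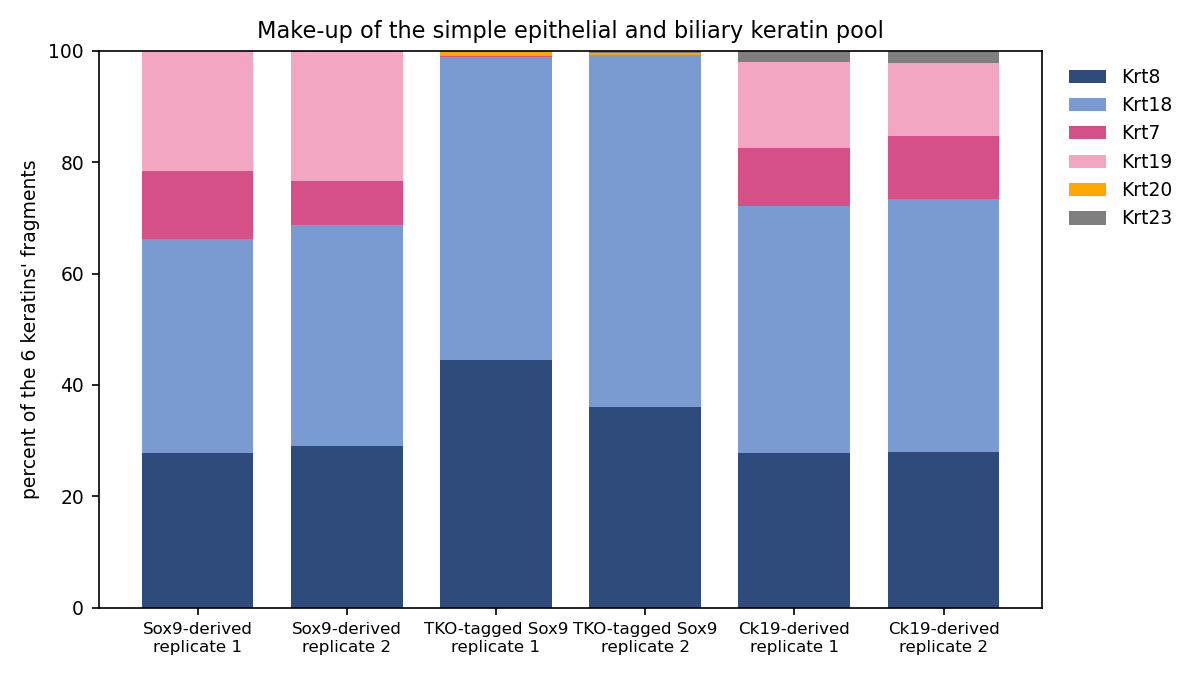
Share of each keratin in the fragments of all 6, in percent, for each library. Krt8 and Krt18 fill nearly all of the bar in TKO-tagged Sox9, whereas Krt19 takes 21.6% and 23.1% in the Sox9-derived and 13.1% and 15.5% in the Ck19-derived organoids, and Krt7 takes 7.86% and 12.2% in the Sox9-derived and 10.3% and 11.4% in the Ck19-derived organoids.

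The balance of type II over type I keratins overlapped between the organoid groups. The summed level per kilobase of Krt7 and Krt8 over that of Krt18, Krt19, Krt20 and Krt23 was 0.418 and 0.437 in the Sox9-derived organoids, 0.438 and 0.623 in TKO-tagged Sox9, and 0.409 and 0.419 in the Ck19-derived organoids. The log2 difference between the Sox9-derived and Ck19-derived organoids was 0.047 (exact permutation p = 0.667). In all 6 libraries the type I sum was the larger under these gene lengths.

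Krt20 and Krt23, both type I, were the least abundant of the 6 per kilobase in both kinds of organoid. Krt20 (ENSMUSG00000035775, chromosome 11, 99428403 to 99438150, minus strand) is best known from intestinal and urothelial lining cells. It had 0 fragments in both Sox9-derived libraries, 10.1 and 43.6 CPM in TKO-tagged Sox9, and 4.12 and 7.94 CPM in the Ck19-derived organoids. Taking 3 fragments in each library as the floor, it was at least 69.9-fold lower in the Sox9-derived than in the Ck19-derived organoids. It was not called by edgeR or limma-voom (adjusted p = 0.0724 and 0.0513) but was called by DESeq2 (adjusted p = 1.28e-07). Without Sox9-derived replicate 1 or 2 edgeR called it (adjusted p = 0.00131 and 0.00157), with the spread taken from the Ck19-derived pair alone. Without Ck19-derived replicate 1 or 2 it was not called (edgeR adjusted p = 0.491 and 0.447). Krt20 was higher in TKO-tagged Sox9 than in the Ck19-derived organoids, without overlap but not called (log2 fold change 2.93, SE 0.85, edgeR adjusted p = 0.0579). Its log2 fold change there was 3.70 without TKO-tagged replicate 2 and 1.49 without TKO-tagged replicate 1. It was 3.49 and 2.49 with Ck19-derived replicate 1 or 2 left out, and the TKO-tagged libraries lay far apart.

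Krt23 (ENSMUSG00000006777, chromosome 11, 99477974 to 99493137, minus strand) is a keratin that injured mouse liver can induce in ductular cells. It had 4.18 and 35.5 CPM in Sox9-derived libraries, 8.25 and 18.96 CPM in TKO-tagged Sox9, and 316 and 321 CPM in the Ck19-derived organoids. Every Sox9 library, tagged or not, thus lay well below the Ck19-derived pair, whose 2 values were close together. The untagged Sox9-derived libraries were far apart, with 153 and 1178 fragments. Their log2 fold change of −4.00 (SE 1.03) over the Ck19-derived organoids was not called by edgeR (adjusted p = 0.163). It was called without Sox9-derived replicate 1 (−3.14, edgeR adjusted p = 0.000166) or replicate 2 (−6.25, edgeR adjusted p = 1.16e-05), where the spread again comes from the Ck19-derived pair alone and the lone library is assumed to vary likewise. Without Ck19-derived replicate 1 or 2 it was not called (edgeR adjusted p = 0.527 and 0.555). Krt23 fell in TKO-tagged Sox9 (log2 fold change −3.78, SE 0.50, edgeR adjusted p = 0.00854), but not without Ck19-derived replicate 1 or 2 (adjusted p = 0.0612 and 0.0629). Krt20 and Krt23 lie 39823 bases apart on chromosome 11, but in TKO-tagged Sox9 their differences from the Ck19-derived organoids had opposite signs.

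Over all 6 keratins, none was called between the Sox9-derived and the Ck19-derived organoids, where edgeR called 95 of 16653 tested genes, or 0.570% (0.186% higher and 0.384% lower). At an unadjusted edgeR p under 0.05 stood 4 of the 6 (Krt18, Krt19, Krt20 and Krt23), against 2792 of the 16653 tested genes. DESeq2, which called 9.08% of all genes, called Krt20 and Krt23, and so did edgeR with no count filter, which called 1.52%. The same 2 were called without Sox9-derived replicate 1 or 2, where 7.67% and 5.35% of all genes were called, and limma-voom called 0 of the 6. The median log2 fold change of the 6 was −0.31, and that of all tested genes was 0.0060. Between TKO-tagged Sox9 and the Ck19-derived organoids, 3 of 6 fell (Krt7, Krt19 and Krt23), 0 rose and 3 were not called. There edgeR called 5190 of 17938 genes, or 28.9%, with 14.0% lower and 15.0% higher. The median of the 6 was −2.25, and that of all genes was −0.065. Krt8 and Krt18 had log2 fold changes of −0.47 (SE 0.61) and −0.72 (SE 0.49) in that fit, with edgeR adjusted p = 0.604 and 0.326. Both depended on which tagged library was used. Without TKO-tagged replicate 1 both were called lower (−1.55 and −1.42, edgeR adjusted p = 0.00490 and 0.00669), and without replicate 2 they stood at 0.20 and −0.19. Scaling by library totals alone moved the median of all genes to −0.82 and the split of calls to 1960 higher and 5158 lower (39.7% of all genes), against 2683 and 2507 with TMM. Krt8 and Krt18 then had log2 fold changes of −1.25 and −1.49, not called (edgeR adjusted p = 0.141 and 0.0533).

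**Figure D4:**
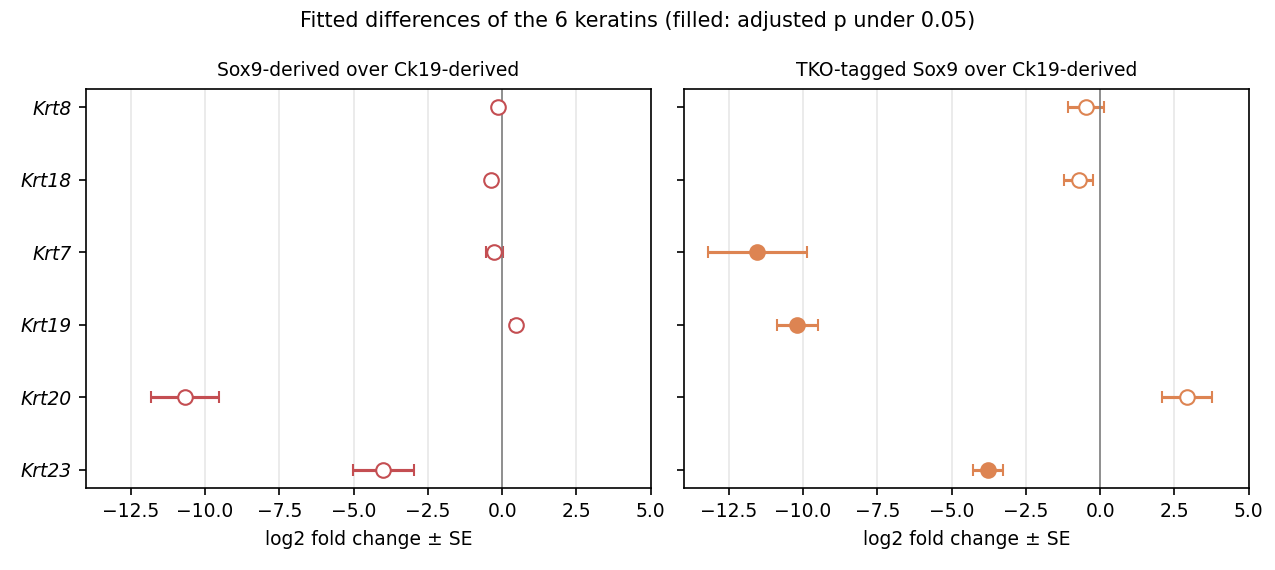
Log2 fold change with its standard error from edgeR for each keratin, Sox9-derived over Ck19-derived organoids on the left and TKO-tagged Sox9 over Ck19-derived on the right, with filled points for adjusted p under 0.05. No point is filled on the left, and Krt7, Krt19 and Krt23 are filled on the right; the Krt20 value on the left rests on 0 fragments in the Sox9-derived libraries and is no bound.

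Other keratins were scarce. Of 16 keratins of stratified and other epithelia, 9 were tested in the organoids, and 2 fell in the Sox9-derived libraries, beside 0.384% lower among all genes. Krt4, a type II keratin of squamous lining, had 0 and 1 fragment in the Sox9-derived libraries, against 64.3 and 128 CPM in the Ck19-derived libraries (edgeR adjusted p = 0.0335). Krt5, the type II keratin of basal cells, likewise had 0 and 1 fragment, against 7.40 and 9.41 CPM (edgeR adjusted p = 0.0489). Without Ck19-derived replicate 1 or 2 neither was called (edgeR adjusted p from 0.362 to 0.467), and limma-voom did not call Krt4 (adjusted p = 0.0570). No called member of this list rose, in either comparison. In TKO-tagged Sox9 8 members were tested and 5 fell (Krt4, Krt13, Krt15, Krt16 and Krt79), beside 14.0% lower among all genes. Krt13, Krt15 and Krt16 were scarce in the Ck19-derived organoids as well, at no more than 2.20 CPM in either library. Krt4 was not called in this comparison without Ck19-derived replicate 1 or 2.

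Proteins that anchor keratin filaments at desmosomes and hemidesmosomes did not pass the test between the organoid groups. Of 14 such genes with counts, 13 were tested, with 0 higher, 0 lower and a median log2 fold change of −0.037. In TKO-tagged Sox9 all 14 were tested. Pkp1, Pkp3, Jup and Itgb4 fell, Dsc2 and Ppl rose, and 8 were not called, beside 14.0% lower and 15.0% higher among all genes. Jup, which encodes the desmosomal plaque protein plakoglobin, had 265 and 306 CPM in Sox9-derived organoids, 21.8 and 29.6 CPM in TKO-tagged Sox9, and 189 and 271 CPM in the Ck19-derived organoids. Of 7 tested genes for other intermediate filament proteins, and of 10 for proteins that bind or regulate keratins, 0 were called between the organoid groups. In TKO-tagged Sox9, 1 of the 7 other filament genes rose (Vim), 2 fell (Synm and Lmna) and 4 were not called. Vim, the filament protein of mesenchymal cells, rose to 52.7 and 146 CPM, against 0 and 0.0305 CPM in the Ck19-derived organoids (edgeR adjusted p = 0.00255). Of the 10 keratin-binding and regulatory genes, 4 rose (Hspb1, Hspa8, Mapk8 and Tgm2), 2 fell (Sfn and Fbf1) and 4 were not called. Hspa8, a chaperone gene, rose to 967 and 1166 CPM, against 454 and 550.3 CPM in the Ck19-derived organoids (edgeR adjusted p = 0.0118). Tgm2, which encodes a transglutaminase that cross-links proteins, rose to 122 and 228 CPM, against 50.1 and 67.1 CPM in the Ck19-derived organoids (edgeR adjusted p = 0.0182). The keratin-binding adaptor gene Sfn, which encodes 14-3-3 sigma, fell to 0 and 0.0168 CPM, against 66.5 and 114 CPM in the Ck19-derived organoids (edgeR adjusted p = 0.00149). Without Ck19-derived replicate 1 or 2, Vim and Sfn were still called (edgeR adjusted p from 0.0171 to 0.0344). Jup, Synm, Lmna, Hspb1, Hspa8, Mapk8, Tgm2 and Fbf1 were then not called (edgeR adjusted p from 0.0549 to 0.248). The mesenchymal markers given above moved with Vim, and their part in it was not tested. Of the 15 biliary markers, 2 rose in the Sox9-derived over the Ck19-derived organoids, beside 0.186% higher among all genes, and 13 were not called. Sox9, a transcription factor of duct cells, had 562 and 567 CPM in Sox9-derived libraries, against 78.4 and 97.0 CPM in Ck19-derived libraries (edgeR adjusted p = 0.0386). Its level in the TKO-tagged libraries was 63.8 and 106 CPM. Spp1, which encodes the secreted protein osteopontin, had 18279 and 22830.3 CPM in Sox9-derived libraries, against 7434 and 7744 CPM in Ck19-derived libraries (edgeR adjusted p = 0.0467). Neither was called without Ck19-derived replicate 1 or 2 (edgeR adjusted p from 0.401 to 0.467).

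The genes with the pattern most like each keratin over the 4 organoid libraries were found by the root mean square difference of centred log2 CPM, among 8878 genes whose mean CPM was 10 or more. Krt8 was nearest to Ankrd40 (0.0033) and to its own pseudogene Krt8-ps (0.014), Krt18 to Prkcz (0.017) and Rac1 (0.022), Krt19 to Hnrnpll (0.012) and Supt16 (0.014), and Krt7 to Ada (0.020) and Pard3 (0.024). For Krt23 the nearest were Gcnt3 (0.18) and Igfbp4 (0.21), and for Krt20 Usp18 (0.56) and Rps4l (0.88). Gcnt3 repeated the uneven pair of Krt23, at 0.901 and 10.6 CPM in the Sox9-derived and 72.1 and 82.6 CPM in the Ck19-derived libraries. With 4 libraries in 2 groups many genes share such a pattern, and the listing is a description only.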

How the data were processed

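Bulk RNA sequencing counts of 4 organoid libraries, and of 2 TKO-tagged Sox9 libraries as an alternative, were analysed. Per the file headers, the authors counted fragments per gene with featureCounts 1.5.0-p3 (Ensembl release 87, GRCm38; both ends mapped, primary alignments, mapping quality of at least 10, no strand); the aligner named in the submitters' processing notes is STAR 2.5.4b. The deposited counts were raw and not pooled. Duplicates were to be ignored, but 0 fragments were flagged, so PCR copies were kept. Of the fragments, 33.2% to 40.9% were dropped for low mapping quality, which lowers genes with near-identical copies. Strand was not used, but no exon base of the 6 keratins is shared with another gene. Columns were tied to samples by name, which left 4 columns without a label, not analysed here.

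Symbols for 49326 gene IDs were taken from GENCODE. CPM used library totals. Genes were filtered (filterByExpr, minimum count 10), scaled by TMM and tested with the edgeR 4.0.16 quasi-likelihood test in R 4.3.3, two-sided, with Benjamini-Hochberg adjustment over all tested genes and a threshold of 0.05; the fit had been planned over all groups and held 4 libraries, leaving 2 residual degrees of freedom. Fold changes are over the Ck19-derived organoids, and the SE is the log2 fold change divided by the square root of F. Ratios within libraries were compared by exact permutation. Alternatives were relative log expression factors, library totals, DESeq2 1.42.0, limma-voom 3.58.1, no count filter, each library left out, a replicate block, and the TKO-tagged columns. The fits were also run on simulated data with 200 changed genes. The simulated spread followed a trend over genes, not each gene's own, and no result here rests on it. Named were the 6 keratins, called members of the other lists between the organoid groups (up to 4 in the main direction and 2 in the other), label markers and the 2 nearest patterns of each keratin, for which 0.5 fragment was added. Jup, Vim, Sfn, Hspa8, Tgm2 and Eif2s3y were chosen after their values were seen. The members and lists were chosen with earlier results of these data known.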

Additional observations from a re-analysis of the deposited data

How the results depend on the processing

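Between the Sox9-derived and Ck19-derived organoids, relative log expression factors, library totals and limma-voom called 97, 95 and 93 genes and 0 of the 6 keratins. DESeq2 called 1512 genes and 2 keratins, the fit with no count filter 506 and 2, and the TKO-tagged columns in place of the untagged ones 5190 and 3. Fits without 1 library called 0 to 1394 genes and 0 to 2 keratins: 0 genes without either Ck19-derived library, and 1394 and 975 without Sox9-derived replicate 1 and 2. The replicate numbers do not pair the libraries by any label, and deviations of same-numbered libraries correlated at 0.058. With a replicate block edgeR called 0 genes and 0 keratins (2665 genes at an unadjusted p under 0.05). The difference of the biliary to shared ratio, 0.34, cannot change under such a block, since groups of equal size give the same mean difference.

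The log2 difference of the biliary to shared ratio was 0.67 from sums, 0.74 with Krt19 alone, −0.060 with Krt7 alone and 0.34 with Krt8-ps added to Krt8, and ran from 0.17 to 0.50 without 1 library. With the TKO-tagged columns and 0.5 fragment added it was −11.23. The type II to type I difference ran from 0.015 to 0.079 without 1 library, and was 0.22 for Krt8 over Krt18 alone and 0.34 with the TKO-tagged columns.

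For TKO-tagged Sox9, chosen for these checks after seeing the data, fits without 1 library called 881 to 6976 genes and 1 to 5 keratins. Without Ck19-derived replicate 1 or 2, 918 and 881 genes and 1 keratin (Krt19) were called; without TKO-tagged replicate 1, 5 keratins. Relative log expression factors called 5196 genes and library totals 7118, each with 3 keratins. The sign turned for Krt7 between the organoids without Sox9-derived replicate 2 (log2 fold changes without 1 library from −0.69 to 0.082), for Krt8 without TKO-tagged replicate 2 (from −1.55 to 0.20), and for the Sox9 gene in the tagged fit with library totals (−0.048). The causes were not tested. Intervals and floors cover counting error only, and 2 libraries a group limit every comparison.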
